A study of Rattus norvegicus with 5 samples.

Results

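The inflammasome and pyroptosis genes followed here are the sensors Nlrp3, Nlrc4 and Aim2, the adaptor Pycard, the caspases Casp1, Casp4 and Casp8, the pore protein Gsdmd, and the cytokines Il1b and Il18. They were listed by name, with earlier results of these data known, and matched to rows of the deposited count table by gene symbol. Of the 10 genes, 9 had a row among the 17321 in the table, and Aim2 was not analysed here. The 9 were measured in the lumbar dorsal horn (segments L4-L6) of Sprague Dawley rats on day 9 after surgery, in 3 CCI libraries and 2 SHAM libraries. CCI commonly stands for chronic constriction injury, in which loose ligatures are tied around the sciatic nerve to model neuropathic pain, and SHAM is the operation alone. No other treatment or genetic change is given in the labels, nor is it said whether each library came from one animal or from pooled animals, so the p-values measure only the spread between these libraries, which may be technical.

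An inflammasome is a protein scaffold that forms in the cytoplasm when a sensor meets microbial products or signs of cell damage. The sensor joins the adaptor ASC, the product of Pycard, and brings molecules of pro-caspase-1 together so that they cleave themselves. Active caspase-1 then cuts pro-interleukin-1 beta and pro-interleukin-18 into their secreted forms, and cuts gasdermin D, whose free end opens pores in the plasma membrane and can end in pyroptosis, a lytic form of cell death. In the spinal cord, microglia are regarded as a main source of interleukin-1 beta, a cytokine that raises the excitability of pain pathways. Messenger RNA levels report on the supply of these parts and not on the assembly of the scaffold or on cleavage.

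Total estimated counts ran from 20053353 to 23673198 per library. Markers of dorsal horn neurons such as Lbx1 and Slc17a6 were present in every library, at 8.59 to 15.8 CPM and 292 to 342 CPM (CPM are counts scaled to the library size, itself corrected by the trimmed mean of M-values). Ribosomal RNA rows took 16.0% of the counts of CCI 3 and 2.18% to 2.71% elsewhere. Schwann cell genes were unevenly present, with the 16 measured markers summing to 582, 749 and 1202 CPM in CCI 1, CCI 2 and CCI 3 and to 571 and 589 CPM in SHAM 1 and 2. The fibroblast and meninges markers did likewise, their 14 genes summing to 204, 1012 and 850 CPM in CCI 1 to 3 and to 210 and 268 CPM in SHAM. CCI 2 also held traces of T cell and cytotoxic cell transcripts, with Cd3e at 2.22 CPM there, 0.477 CPM in CCI 3 and 0 in the other libraries.

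All 9 measured genes stood higher in each CCI library than in either SHAM library, and 5 of them passed the test. Those 5 were Nlrp3, Nlrc4, Pycard, Casp4 and Casp8, with rises of 2.63-fold to 3.94-fold. Casp1, Gsdmd, Il1b and Il18 did not pass. A gene was called at a Benjamini-Hochberg adjusted p no higher than 0.05 with a change of 1.5-fold or more in edgeR's quasi-likelihood test over 13478 genes. Of all genes tested, 2.59% were called higher in CCI, and 18.6% had every CCI library above both SHAM libraries. None of the 9 was called lower or had a negative fold at an unadjusted p of 0.05 or less, also with DESeq2 and limma-voom, and 0.26% of all genes were called lower. The median log2 fold change was 1.46 over the 9 genes, and 0.01 over all genes tested. Il1b reached the count needed for testing only through the CCI libraries, and the median was again 1.46 without it. For a single gene the exact permutation test, two-sided, can give no p below 0.1 with the 10 ways of splitting 5 libraries into 3 and 2, and each of the 9 genes had that value.

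**Figure D1:**
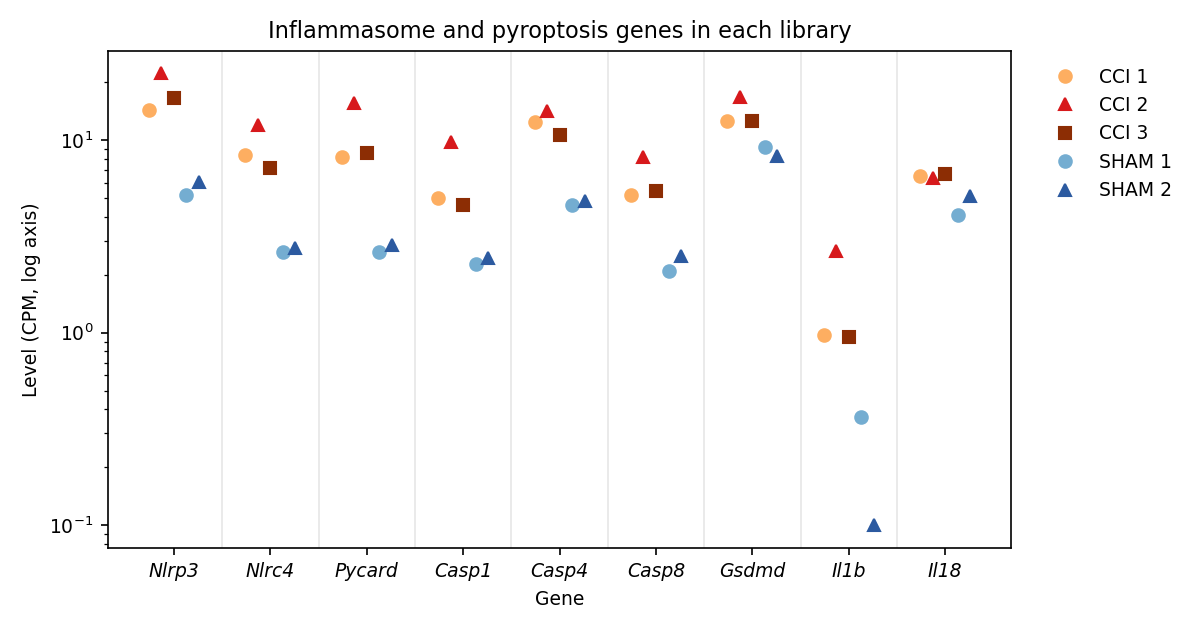
Level of each of the 9 measured genes in CPM on a log axis, with 1 point per library (3 CCI, 2 SHAM). Every CCI point lies above both SHAM points of its gene, and CCI 2 is the highest library for 8 of the 9 genes.

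Both measured sensors rose. NLRP3 responds to potassium efflux, extracellular ATP and crystals, and is the sensor most studied in pain models. Nlrp3 stood at 14.4, 22.3 and 16.7 CPM in CCI 1, CCI 2 and CCI 3 and at 5.18 and 6.10 CPM in SHAM 1 and SHAM 2. The lowest CCI library was thus more than double the higher SHAM library. The rise was 3.15-fold (log2 fold change 1.66, SE 0.22, adjusted p = 0.00405), which placed Nlrp3 at rank 116 of all genes by p. NLRC4, which senses bacterial flagellin and secretion systems through NAIP proteins, changed alike. Nlrc4 had 8.38, 12.1 and 7.16 CPM in the CCI libraries and 2.64 and 2.75 CPM in SHAM. That is a rise of 1.78 on the log2 scale (SE 0.27, adjusted p = 0.00896). The SHAM libraries lay close together and the CCI libraries spread more widely, with CCI 2 the highest for both sensors.

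Pycard, the adaptor that links pyrin-domain sensors to caspase-1, had the largest fold among the called genes of the set. Its level was 8.15, 15.7 and 8.54 CPM in the 3 CCI libraries and 2.64 and 2.85 CPM in the 2 SHAM libraries. CCI 1 and CCI 3 were nearly equal and CCI 2 stood almost at double their level. The log2 fold change was 1.98 (SE 0.33, adjusted p = 0.0196), and 1.60 without CCI 2 (adjusted p = 0.00217). With limma-voom the adjusted p was 0.0689 and the call was lost, as it was in the TPM-named table at a pseudocount of 0.5.

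Among the caspases, 2 of the 3 were called. Casp4, which encodes caspase-11 in rodents, a direct receptor for bacterial lipopolysaccharide in the non-canonical pathway, had the smallest SE of the caspases. Its values were 12.5, 14.1 and 10.7 CPM in the CCI libraries against 4.64 and 4.85 CPM in SHAM, so the CCI libraries agreed among themselves better than for the other caspases. The log2 fold change was 1.39 (SE 0.18, adjusted p = 0.00431). Casp8, an initiator caspase of the death receptors that can also cleave interleukin-1 beta and gasdermin D, had 5.18, 8.18 and 5.46 CPM in the CCI libraries and 2.09 and 2.50 CPM in SHAM. It rose by 1.45 on the log2 scale (SE 0.28, adjusted p = 0.0283).

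Casp1, the effector of the canonical inflammasome, did not pass although its fold was that of Casp8. Its levels were 4.998, 9.85 and 4.61 CPM in the CCI libraries and 2.27 and 2.45 CPM in SHAM. CCI 2 lay at about double the other CCI libraries, which themselves stood at about double the SHAM libraries. The log2 fold change was 1.46 (SE 0.37, adjusted p = 0.091) and became 1.03 without CCI 2 (SE 0.28, adjusted p = 0.0786). DESeq2 called Casp1 (adjusted p = 0.0104), as did the likelihood ratio test (0.00901), total count scaling (0.0399) and the main test without CCI 1 (0.0462).

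Gsdmd, the substrate that forms the pore, differed less between the groups. It stood at 12.6, 16.7 and 12.5 CPM in the CCI libraries and at 9.27 and 8.29 CPM in SHAM. The groups did not overlap, but the gap between CCI 3 and SHAM 1 was small beside that of the sensors. The log2 fold change was 0.67 (SE 0.18, adjusted p = 0.0982), with an adjusted p of 0.0504 in DESeq2 and 0.0432 in the likelihood ratio test.

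The cytokines behaved differently from each other. Il1b was the scarcest of the 9 genes, with 21, 67 and 18 counts in CCI 1 to 3 and 8 and 2 counts in SHAM 1 and 2, or 0.972, 2.66 and 0.955 CPM against 0.364 and 0.0999 CPM. Its log2 fold change of 2.68 had an SE of 0.73 and an adjusted p of 0.109. The size varied with the libraries used: the log2 fold change was 2.0 without CCI 2, 2.06 without SHAM 2 and 3.87 without SHAM 1. DESeq2 (adjusted p = 0.0312), the likelihood ratio test (0.00545) and total count scaling (0.0386) called it. Il18, whose product drives interferon gamma release by lymphocytes, was in contrast steady. It had 6.53, 6.39 and 6.68 CPM in the CCI libraries and 4.09 and 5.15 CPM in SHAM, and was the only gene of the set in which CCI 2 was not the highest library. The log2 fold change of 0.50 (SE 0.20, adjusted p = 0.266) passed under none of the 18 alternatives tried.

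**Figure D2:**
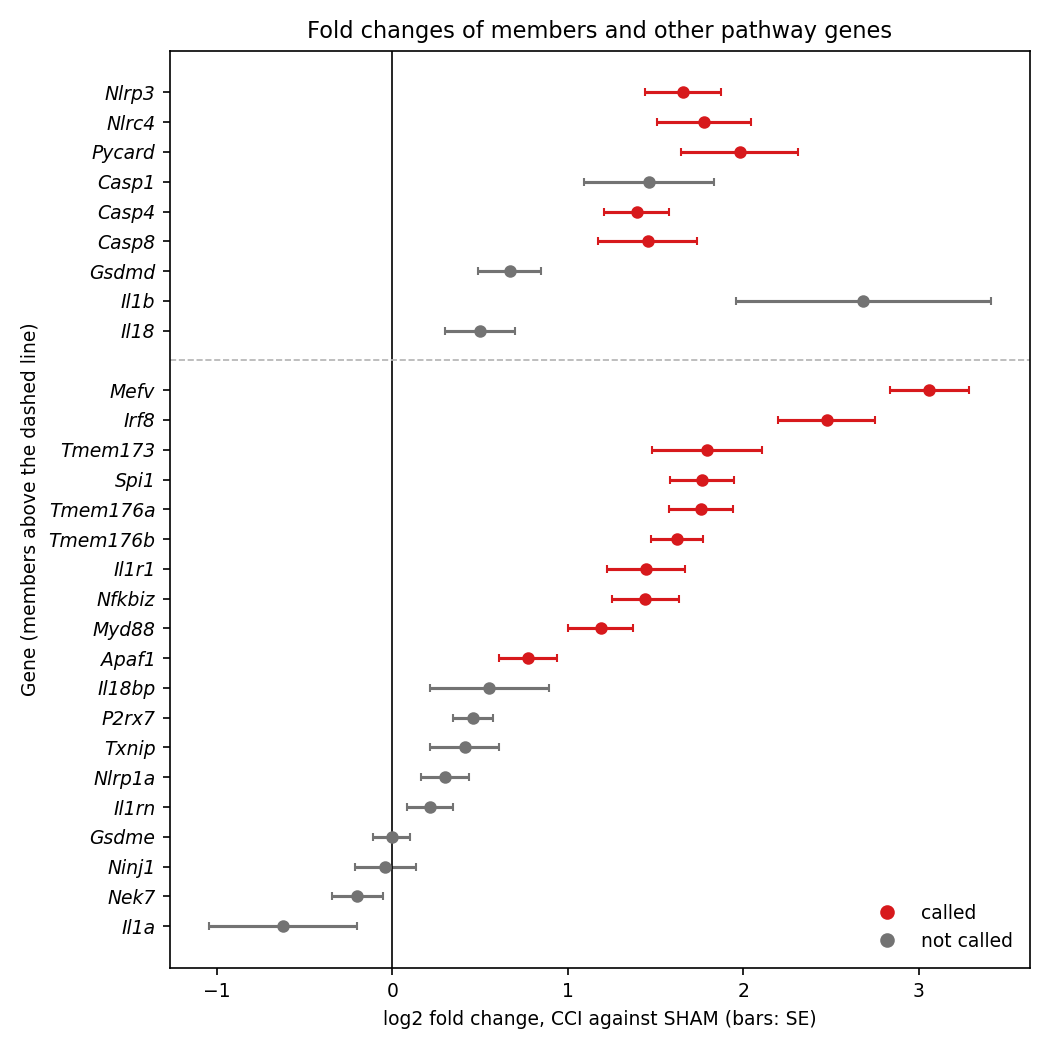
Log2 fold change of CCI against SHAM with its SE for the 9 genes (above the dashed line) and for other genes of the pathway, red where called and grey where not. The 5 called members lie between 1.39 and 1.98, and Mefv, at 3.06, is the highest of the genes drawn.

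Every call in the set rested on having both SHAM libraries. For fits with a lone SHAM library, the share of all genes at an unadjusted p under 0.05 was not counted. Without SHAM 1, and likewise without SHAM 2, edgeR's quasi-likelihood test called none of the 9 genes, while 8 of them kept a higher level at an unadjusted p under 0.05. In those fits only 0.445% and 0.532% of all genes were called higher, and the lone SHAM library is assumed to vary as the CCI libraries do. Fold changes of the called sensors and Casp4 moved little: Nlrp3 was at 1.54 without SHAM 1 and 1.77 without SHAM 2, Nlrc4 at 1.74 and 1.80, and Casp4 at 1.36 and 1.42. Those of the cytokines moved more, with Il1b at 3.87 and 2.06 and Il18 at 0.34 and 0.67. Leaving out any CCI library kept the calls of Nlrp3, Nlrc4, Pycard, Casp4 and Casp8. With the level of the Schwann cell markers as a covariate, Nlrp3, Nlrc4 and Casp4 were called at log2 fold changes of 1.48, 1.83 and 1.48 (1.29% of all genes were called higher), while Pycard (1.85, adjusted p = 0.163) and Casp8 (1.34, adjusted p = 0.184) were not. In the comparison of CCI 1, whose summed Schwann cell markers lay between those of the SHAM libraries, with SHAM alone, 4 of the 9 and 2.73% of all genes were called higher, and Casp8 was at 1.16 (adjusted p = 0.0604). There the lone CCI library is assumed to vary as the SHAM libraries do.

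**Figure D3:**
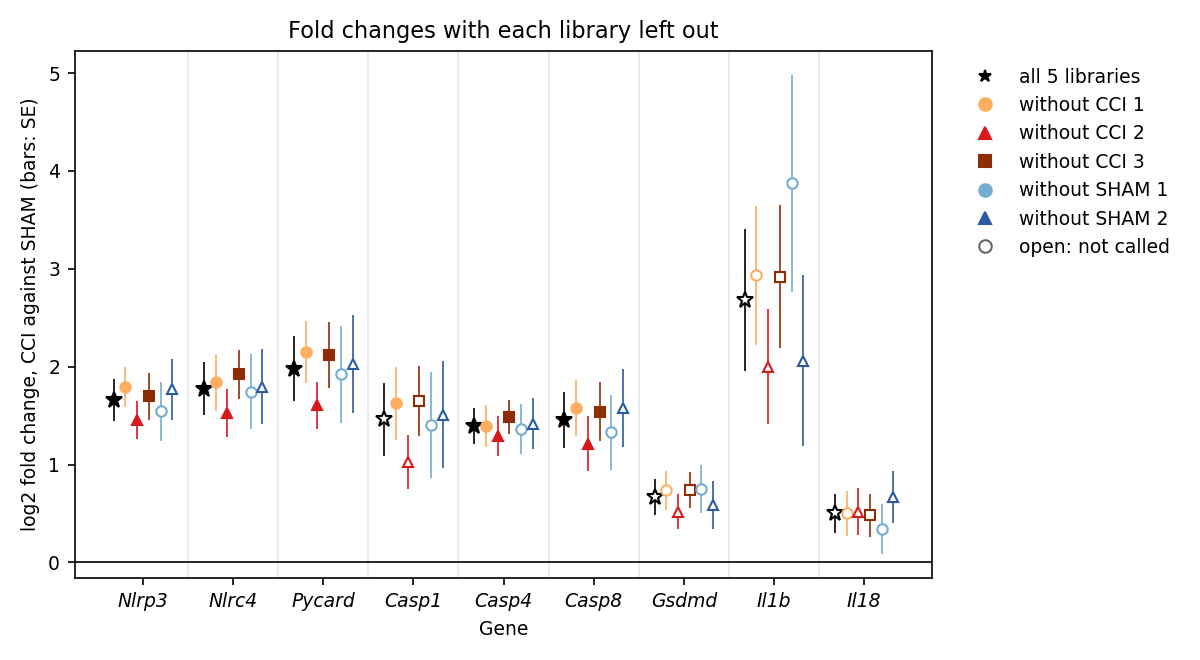
Log2 fold change of each gene with its SE, from all 5 libraries and with each library left out in turn, filled where called and open where not. All values lie above 0, those without CCI 2 are the lowest of the 6 for every gene but Il18, and no gene is filled without SHAM 1 or SHAM 2.

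Levels of different genes can be compared only per transcript length, which the deposited table named TPM provides (TPM are length-corrected shares of the library, here also scaled by the authors). In SHAM the order was Il18 (9.73 and 11.8), Pycard (8.79 and 9.03), Gsdmd (7.23 and 6.40), Casp4 (4.80 and 4.94), Casp1 (2.41 and 2.55), Nlrp3 (1.65 and 1.93), Casp8 (1.36 and 1.61), Nlrc4 (0.946 and 0.982) and Il1b (0.380 and 0.103). No neighbours in that order overlapped, with only 2 libraries to show it. In CCI the adaptor came first, with Pycard at 26.4, 53.5 and 27.6, and Il18 followed at 15.2, 15.6 and 15.6. Casp4 (11.2 to 14.9) overtook Gsdmd (9.88 to 13.3), but their ranges overlapped, and so did those of each following pair: Gsdmd with Casp1 (4.93 to 10.6), Casp1 with Nlrp3 (4.60 to 7.21), Nlrp3 with Casp8 (3.39 to 5.43), Casp8 with Nlrc4 (2.63 to 4.41) and Nlrc4 with Il1b (1.01 to 2.84). Within each CCI library the order was nonetheless the same, except that Nlrp3 stood above Casp1 in CCI 3. Among the 15673 genes with a level, Pycard moved from the 43.9th percentile in SHAM to the 77.5th in CCI, and Il1b from the 11.9th to the 20.7th.

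Within a library, the ratios of these per-length levels show which parts shifted against each other. Gsdmd to Casp4 was 0.765, 0.891 and 0.885 in CCI and 1.51 and 1.30 in SHAM, so the pore protein's transcript went from more abundant than that of Casp4 to less abundant. Pycard to Il18 was 1.73, 3.44 and 1.76 in CCI against 0.903 and 0.765 in SHAM. Pycard to Casp1 was 4.99, 5.04 and 5.60 in CCI and 3.65 and 3.54 in SHAM. Of 10 ratios computed, 7 did not overlap between the groups, these 3 among them. In contrast, Casp4 to Casp1 (1.40 to 2.44 in CCI, 1.94 to 1.99 in SHAM) and Nlrp3 to Nlrc4 (1.52 to 2.06 in CCI, 1.74 to 1.97 in SHAM) did overlap, as did Pycard to Nlrp3. The pairs share genes, so the ratios are not independent, and no share over other pairs of genes was computed. Of single genes tested, 18.6% had every CCI library above both SHAM libraries and 18.1% had every one below. The ratios are descriptions of 5 libraries.

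Microglia markers moved with the set. Of 18 tested microglia markers 12 were called higher and none lower, beside 2.59% and 0.26% of all genes. Their median log2 fold change was 1.43. The summed level of the markers was 1371 to 1558 CPM in the CCI libraries and 473 to 541 CPM in SHAM. Among them Itgam rose by 1.82 (SE 0.13), Csf1r by 1.64 (SE 0.12) and Aif1 by 2.03 (SE 0.29) on the log2 scale. In bulk tissue, more cells of a type and more RNA per cell cannot be told apart. Set against the mean log2 level of the 18 markers in the same library, Gsdmd was 0.75 lower in CCI and Il18 was 0.91 lower, with no overlap between the groups (differences of -0.75 and -0.91). Nlrc4 (0.19), Casp1 (-0.17), Casp4 (-0.08), Casp8 (-0.13) and Il1b (0.01) overlapped, while Nlrp3 (0.17) and Pycard (0.36) were higher in each CCI library. The value of Il1b is held down by the 0.5 CPM added before the log, which exceeds its SHAM levels of 0.364 and 0.0999 CPM. In the main fit its log2 fold change was 2.68 (SE 0.73), whereas the mean log2 level of the 18 markers rose by 1.38. The added 0.5 CPM also lowers, by less, the values of other genes scarce in SHAM, such as Casp1 and Casp8. Their log2 fold changes in the main fit were 1.46 (SE 0.37) and 1.45 (SE 0.28), so the signs of -0.17 and -0.13 are not firm. Which genes stood out depended on the markers. Other marker choices were made after seeing the data. Against Itgam, Csf1r and Aif1 alone the difference was -0.25 for Nlrp3, -0.07 for Pycard, -1.18 for Gsdmd and -1.34 for Il18. Against Cx3cr1, P2ry12, Gpr34 and Sall1, which rose less, it was 0.67 for Nlrp3, 0.85 for Pycard, -0.26 for Gsdmd and -0.42 for Il18. Il18 alone was below in each CCI library under all 3 choices.

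**Figure D4:**
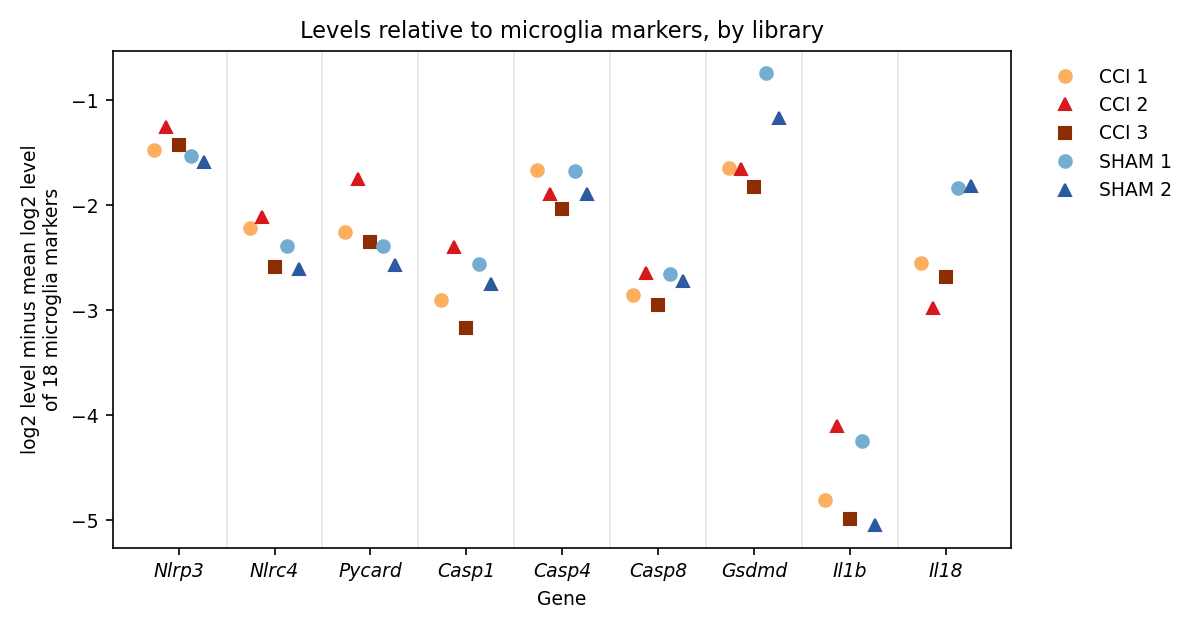
Log2 level of each gene minus the mean log2 level of 18 microglia markers in the same library, 1 point per library. Gsdmd and Il18 are lower in every CCI library than in both SHAM libraries, whereas the points of Nlrc4, Casp1, Casp4, Casp8 and Il1b overlap. The 0.5 CPM added before the log exceeds the SHAM levels of Il1b and shrinks its difference. It also lowers, by less, the differences of other genes scarce in SHAM, such as Casp1 and Casp8.

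Of the markers of blood leukocytes and border macrophages, 7 of 18 had enough counts to be tested and 1 was called higher. The call was Plac8, at 30.4, 55.8 and 33.4 CPM in the CCI libraries and at 0.773 and 1.40 CPM in SHAM. Itgal, an integrin gene of leukocytes named after its values were seen, was at 36.0, 73.1 and 27.8 CPM against 4.27 and 3.35 CPM (adjusted p = 0.0569). These were the only tested markers of the list with no overlap between the groups. Of all genes tested, 18.6% had every CCI library above both SHAM libraries. In CCI 1 to 3, Plac8 and Itgal made up much of the summed level of the 18 genes, which was 90.6, 191 and 125 CPM. In SHAM that sum was 33.2 and 36.8 CPM, and Plac8 and Itgal were a small part of it. The part of these cells in the result was not tested. The neutrophil genes S100a8, S100a9, Mpo and Elane lay between 0 and 0.437 CPM in all 5 libraries.

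Other sensors and their partners mostly did not pass. Of 13 tested genes in that list 2 were called higher and none lower, beside 2.59% and 0.26% of all genes. At an unadjusted p under 0.05, 4 were higher and 1 lower, where 2153 of all 13478 genes differed in either direction. The median log2 fold change of the list was 0.20. Mefv, which encodes pyrin, the sensor mutated in familial Mediterranean fever, stood at 11.9, 13.02 and 10.8 CPM in the CCI libraries and 1.64 and 1.20 CPM in SHAM. That is a clean separation, an 8.35-fold rise (log2 fold change 3.06, SE 0.23, adjusted p = 0.000298) that was called under all 18 alternatives, including without either SHAM library. Tmem173, which encodes STING, the adaptor of cytosolic DNA sensing, rose by 1.79 (SE 0.31, adjusted p = 0.0177), a call lost without CCI 3, without CCI 2 and CCI 3 together, without either SHAM library and with the Schwann cell covariate (adjusted p 5.76e-05 to 0.268 over the alternatives). Nlrp1a, the sensor activated when its own front end is degraded, was at 72.8, 79.7 and 97.7 CPM in the CCI libraries and 70.5 and 64.9 CPM in SHAM (log2 fold change 0.30, adjusted p = 0.33). Its estimated counts were fractional, so reads may be shared with other rows.

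Apoptotic caspases, other gasdermins and necroptosis genes mostly did not pass. In this list 1 of 21 tested genes was called higher and none lower, beside 2.59% called higher over all genes. At an unadjusted p under 0.05, 9 were higher and none lower, where 2153 of all 13478 genes differed in either direction. The median log2 fold change of the list was 0.32. The call was Apaf1, the scaffold of the apoptosome, at 0.77 (SE 0.17, adjusted p = 0.0459), which was lost in 12 of 18 alternatives and rests on fractional counts. Gsdme, another pore-forming gasdermin, was level at 25.9, 26.2 and 26.1 CPM in the CCI libraries and 26.5 and 25.8 CPM in SHAM. Ninj1, which carries out the final rupture of the membrane, ranged from 13.4 to 14.9 CPM in the CCI libraries and from 11.9 to 16.9 CPM in SHAM.

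Among regulators of inflammasome assembly 4 of 27 tested genes were called higher and none lower, beside 2.59% and 0.26% of all genes. The median log2 fold change of the list was 0.46. Tmem176a and Tmem176b, a pair of ion channel genes of myeloid cells described as restraining NLRP3, rose by 1.76 (SE 0.18) and 1.62 (SE 0.15). The myeloid transcription factor genes Spi1 and Irf8 rose by 1.76 (SE 0.18, adjusted p = 0.00146) and 2.47 (SE 0.28, adjusted p = 0.00357). The Irf8 call was lost without either SHAM library (adjusted p up to 0.129). The direct triggers and partners of NLRP3 did not pass. P2rx7, the ATP-gated channel that lets potassium out, had 27.9, 25.8 and 28.8 CPM in the CCI libraries and 20.1 and 19.9 CPM in SHAM (log2 fold change 0.46, SE 0.12, adjusted p = 0.0792), with no overlap between the groups. Nek7, the kinase that bridges NLRP3 subunits, had a log2 fold change of -0.20 (adjusted p = 0.531), and Txnip, a redox-sensitive NLRP3 partner, 0.41 (adjusted p = 0.364). Txnip was called without CCI 1 (0.59, adjusted p = 0.0238).

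Downstream of the cytokines, 28 genes of the interleukin-1 and interleukin-18 families and their signalling were tested. Of these, 3 were called higher and none lower, beside 2.59% and 0.26% of all genes, with a median of 0.25. Il1r1, the signalling receptor for interleukin-1, rose from 5.09 and 4.90 CPM in SHAM to 10.1, 14.6 and 16.1 CPM in CCI (log2 fold change 1.45, SE 0.22, adjusted p = 0.00979). Myd88, the adaptor of that receptor and of Toll-like receptors, rose by 1.19 (SE 0.18, adjusted p = 0.00967), and Nfkbiz, an inducible regulator of NF-kB targets, by 1.44 (SE 0.19, adjusted p = 0.00431). The natural antagonists did not pass: Il1rn, which blocks the receptor, was at 14.4 to 15.4 CPM in the CCI libraries and 12.6 to 12.8 CPM in SHAM (adjusted p = 0.452), and Il18bp, which captures interleukin-18, had a log2 fold change of 0.55 (adjusted p = 0.465). Il1a, the second interleukin-1, was at 0.463, 0.516 and 0.636 CPM in the CCI libraries and at 1 and 0.65 CPM in SHAM, without overlap (log2 fold change -0.62, SE 0.42, adjusted p = 0.5). None of the 3 calls was kept without SHAM 1 or SHAM 2, and with the Schwann cell covariate 1 of them, Nfkbiz, remained.

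Because Spi1, the gene of PU.1, was called along with the set, the DNA before the start sites was read for a string that PU.1 binds. RefSeq promoter entries on the build GRCr8 were matched by symbol for 6 of the 10 genes, Aim2 among them. The motif GAGGAA, a string bound by PU.1 and other ETS factors, was searched on both strands in the 250 bases before the start. No other string bound by these factors was searched, so a window without GAGGAA may hold one. GAGGAA was in the windows of Nlrp3, Casp1 and Aim2 and not in those of Pycard, Il1b or Il18. Of 33465 promoters of that length 23.3% hold it. The windows of a sensor, the adaptor and the effector caspase are shown 5′ to 3′ on the gene's strand, with GAGGAA in capitals. The entries for Nlrp3 and Casp1 lie inside the annotated gene, after its most upstream start. A match is a string of letters only.
Nlrp3, chr10:44827848-44828097, plus strand: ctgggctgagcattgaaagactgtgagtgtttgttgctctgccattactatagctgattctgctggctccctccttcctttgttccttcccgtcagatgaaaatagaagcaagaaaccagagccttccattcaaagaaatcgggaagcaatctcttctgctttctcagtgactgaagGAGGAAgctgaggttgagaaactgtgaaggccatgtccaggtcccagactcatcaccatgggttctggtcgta
Pycard, chr1:192033420-192033669, minus strand: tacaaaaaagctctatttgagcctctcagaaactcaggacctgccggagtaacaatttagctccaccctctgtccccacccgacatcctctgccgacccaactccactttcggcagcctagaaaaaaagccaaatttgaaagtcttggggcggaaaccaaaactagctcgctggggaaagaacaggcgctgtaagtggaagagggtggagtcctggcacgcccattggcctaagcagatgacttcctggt
Casp1, chr8:10872580-10872829, plus strand: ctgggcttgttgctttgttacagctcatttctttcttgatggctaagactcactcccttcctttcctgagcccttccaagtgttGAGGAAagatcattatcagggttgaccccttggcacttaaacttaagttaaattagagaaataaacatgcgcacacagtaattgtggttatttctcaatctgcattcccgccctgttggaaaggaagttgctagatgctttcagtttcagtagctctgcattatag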

How the data were processed

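Total RNA from 3 CCI and 2 SHAM libraries was read on an Illumina HiSeq (per the series' design text), and the treatment label gives the groups. The deposited table of estimated counts per gene symbol comes from kallisto 0.44.0 and build rn6, according to the submitters' processing notes. A second table of theirs, named TPM, holds a per-length signal that the authors scaled by trimmed mean of M-values, per the same design text. Its columns sum to 903964 to 1050114, so it is treated as a signal. Which annotation and filters were used is not given in the sources used here. Counts of the 9 genes were whole in every library.

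Counts were rounded. Genes passing filterByExpr (minimum count 10) were fitted with edgeR 4.0.16 in R 4.3.3 (trimmed mean of M-values scaling, robust glmQLFit, two-sided glmQLFTest, 3 residual degrees of freedom), with Benjamini-Hochberg adjustment over all of them; adjusted p-values come from this fit unless another tool is named. The SE is the log2 fold change over the root of F. As alternatives, edgeR's likelihood ratio test, DESeq2 1.42.0, voom of limma 3.58.1, other scalings and filters, the TPM-named table with limma at pseudocounts of 0.5 and 0.1, fewer libraries and a Schwann cell covariate were tried. Levels relative to microglia used log2(CPM + 0.5). Scripts were tested on simulated data. The members and lists were chosen with earlier results of these data known. Besides the members, the text names up to 5 called genes of each pathway list by p, a set of fixed genes, of which 1 is not reported here, and some markers.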

Additional observations from a re-analysis of the deposited data

How the results depend on the processing

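The 9 genes stayed above 0 in log2 fold change in every fit that tested them. Il1b was not tested where 1 CPM was required in 2 libraries. The number called, 5 in the main analysis, was 8 with the likelihood ratio test, and 3 in the TPM-named table without a filter and 3 with the Schwann cell covariate. It ran from 0 to 6 with 1 library left out, being 0 without either SHAM library. Il1b rests on 8 and 2 counts in SHAM, which limits its fold.

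Of all genes, 349 were called higher and 35 lower. The likelihood ratio test gave 621 and 77, DESeq2 543 and 71, and the covariate 174 and 0 (1 library left out: 61 to 644 and 0 to 119). Total count scaling called 56 lower, and 21 were called lower in the TPM-named table without a filter.

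The 10 calls among other pathway genes became 16 with the likelihood ratio test and 6 with the covariate (4 to 15 with 1 library left out). By list, the other sensors went from 2 to 1 with the covariate and to 1 without CCI 2 and CCI 3 (1 to 3 with 1 library left out). The single call among caspases, gasdermins and cell death proteins became 2 under DESeq2, and also 2 under the likelihood ratio test. It became 0 with limma-voom, RLE size factors, the 1 CPM filter, the 3 uses of the TPM-named table, ribosomal RNA rows left out and the covariate (0 to 2 with 1 library left out). The regulators went from 4 to 7 with the likelihood ratio test (3 to 7 with 1 library left out), and the interleukin-1 and interleukin-18 families from 3 to 1 with the covariate (0 to 4). Leaving out a library means fewer samples, and for the other changes the cause was not tested. No paired analysis was possible because the labels number no libraries in a way shared by both groups.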

Other observations

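Some genes of the wider pathway, named after their values were seen, stood far higher in CCI 2 than in the other libraries. For each of them every CCI library lay above both SHAM libraries, as for 18.6% of all genes tested. The interferon-inducible GTPase Gbp2 stood at 18.2, 90.0 and 19.2 CPM in CCI 1, CCI 2 and CCI 3 and at 7.001 and 9.09 CPM in SHAM, and Gbp5 at 3.56, 15.9 and 6.15 CPM against 3.23 and 2.50 CPM. Irf1, a transcription factor induced by interferon, was at 11.2, 33.0 and 13.6 CPM in the CCI libraries and 6.86 and 6.95 CPM in SHAM. Zbp1, a sensor of Z-form nucleic acid that is also induced by interferon, was at 0.833, 3.85 and 1.17 CPM against 0.182 and 0.200 CPM. None of the 4 was called (adjusted p of 0.414, 0.362, 0.299 and 0.108 in edgeR's quasi-likelihood test), and the counts of Gbp2 and Gbp5 were fractional. Nkg7, a gene of cytotoxic lymphocytes, was at 1.67 CPM in CCI 2 and at 0.318 CPM or less in the other libraries. Its part in the higher level of these genes in CCI 2 was not tested.

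Ripk3, the kinase that starts necroptosis, was also named after its values were seen. It stood at 4.91, 8.34 and 3.08 CPM in the CCI libraries and at 1.73 and 1.15 CPM in SHAM, without overlap, and its log2 fold change of 1.92 (SE 0.46, adjusted p = 0.0796) was close to that of Pycard with a wider error.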
